A study of Mus musculus with 16 samples.

Results

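Versican (Vcan), decorin (Dcn), lumican (Lum), biglycan (Bgn), fibromodulin (Fmod), osteoglycin (Ogn), the proline- and arginine-rich leucine-rich repeat protein (Prelp) and dermatopontin (Dpt) are matrix proteins of the dermis. Every probe set whose single annotated symbol was one of these 8 was taken, which gave 19 of the 22690 probe sets and 8 of the 12393 named genes on the array. Vcan had 3 probe sets, Bgn 3, Fmod 6, Ogn 2 and Prelp 2, while Dcn, Lum and Dpt had 1 each. All 8 genes were among the 9058 genes tested, and 18 of the 19 probe sets passed the filter on low values, the exception being the dimmest of the 6 for Fmod.

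The RNA came from total skin, either of mice carrying the K14deltaNB-cateninER transgene, line D2, or from wild-type mice of the C57BL/6 strain. The transgene expresses an N-terminally truncated β-catenin fused to the oestrogen receptor's ligand-binding part from the keratin 14 promoter, a promoter of basal keratinocytes and not of the dermal cells that make these matrix genes, and 4-hydroxytamoxifen (4OHT) turns the protein on. Transgenic skin was taken after 0 days of 4OHT (2 arrays), 1 day (3) and 7 days (3), and wild-type skin after 0 days (3), 1 day (3) and 7 days (2), 16 arrays in all, numbered within a group by the replicate number of their label. Both genotypes received 4OHT, and no array here came from skin given vehicle alone. Neither the age of the mice nor whether arrays stem from different animals is given in the labels. All p-values therefore rest on the spread among these arrays, which may be partly technical. Keratinocyte and dermal genes were both bright in every group: Krt14, of basal keratinocytes, had mean scaled intensities of 6730 to 8550, and Col1a1, of dermal fibroblasts, of 7790 to 11500.

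A proteoglycan is a protein that carries long sulfated sugar chains. Versican is a large one that binds hyaluronan and gives loose, hydrated matrix; in hair-bearing skin it is also a known product of the dermal papilla, the cluster of mesenchymal cells at the base of the follicle. Decorin, biglycan, lumican, fibromodulin, Prelp and osteoglycin are small leucine-rich proteins that bind collagen and growth factors and set the width and spacing of collagen fibrils, and decorin and biglycan in particular bind TGF-beta. Dermatopontin carries no sugar chains of this kind; it binds decorin and TGF-beta and speeds collagen fibril formation.

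The promoter windows of 2 genes that rose, Vcan and Bgn, and of 2 that fell, Ogn and Dpt, are shown because these 4 carry the divergence between members. Each is the 250 bases before the start annotated by RefSeq on GRCm38.p6, read 5′ to 3′ on the gene's strand, with matches on either strand to GGGCGG (the GC box), TATAAA (the TATA box) or CTTTGA (the core bound by Lef and Tcf factors) in capitals. The RefSeq table matched 6 of the 8 genes.
Vcan: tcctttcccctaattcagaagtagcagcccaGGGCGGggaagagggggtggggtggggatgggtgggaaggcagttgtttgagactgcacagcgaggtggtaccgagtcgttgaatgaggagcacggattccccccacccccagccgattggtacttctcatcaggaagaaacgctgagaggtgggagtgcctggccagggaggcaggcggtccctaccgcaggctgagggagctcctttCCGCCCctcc
Bgn: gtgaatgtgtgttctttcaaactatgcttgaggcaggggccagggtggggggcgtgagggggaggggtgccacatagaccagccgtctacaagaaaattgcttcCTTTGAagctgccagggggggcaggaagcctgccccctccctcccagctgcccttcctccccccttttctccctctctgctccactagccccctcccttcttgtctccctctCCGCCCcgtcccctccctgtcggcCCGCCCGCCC
Ogn: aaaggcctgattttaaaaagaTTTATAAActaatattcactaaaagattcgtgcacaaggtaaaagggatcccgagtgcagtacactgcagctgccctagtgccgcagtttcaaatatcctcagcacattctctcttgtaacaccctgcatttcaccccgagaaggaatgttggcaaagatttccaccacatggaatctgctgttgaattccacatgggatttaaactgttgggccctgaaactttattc
Dpt: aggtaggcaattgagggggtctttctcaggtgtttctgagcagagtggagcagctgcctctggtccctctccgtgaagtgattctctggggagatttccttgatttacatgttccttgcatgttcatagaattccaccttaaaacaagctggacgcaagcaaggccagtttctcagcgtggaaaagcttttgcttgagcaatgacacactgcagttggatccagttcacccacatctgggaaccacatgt
The Vcan window (chr13:89742513-89742762, minus strand) held 2 matches to GGGCGG and had a GC content of 62.4%. The Bgn window (chrX:73483351-73483600, plus strand) held 3, 2 of them overlapping at its 3′ end, and 1 match to CTTTGA, and its GC content was 64.4%. The Ogn window (chr13:49607765-49608014, plus strand) held neither of those motifs but 2 overlapping matches to TATAAA, one on each strand, that begin 229 bases before the start, and its GC content was 42.0%. The Dpt window (chr1:164796413-164796662, plus strand) held no match and had a GC content of 48.8%. The windows of Fmod and Prelp, which also fell, held none either, and their GC contents were 51.2% and 55.6%. Of all 32851 windows in the table, 32.7% held GGGCGG, 12.4% TATAAA and 13.8% CTTTGA, and the median GC content was 52.4%, so these matches are common and are given as a description.

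Values are probe set intensities on a linear scale, scaled so that every array had the same trimmed mean. Differences are on the log2 scale, each with its standard error (SE) from a limma fit over all 16 arrays, and a gene was called at a Benjamini-Hochberg adjusted p under 0.05 over the 9058 genes. Each gene is represented by its brightest probe set. Log2 values and folds are of the intensity plus 32, which understates the change of dim genes. Replicate arrays correlated at 0.974 to 0.988 over all genes, the ratio of 3′ to 5′ signal lay between 0.884 and 1.26 for Gapdh and between 1.28 and 1.87 for actin, and no 2 arrays held identical values.

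After 7 days of 4OHT in transgenic skin the 8 genes had split: Vcan and Bgn rose, Lum, Fmod, Prelp, Ogn and Dpt fell, and Dcn did not pass the test. In whole skin, fewer cells of a type and less RNA per cell cannot be told apart. That is 2 of 8 higher against 18.6% of all genes, and 5 of 8 lower against 20.1%. Their median log2 difference was -0.55, where the median over all genes was 0.0066. In wild-type skin over the same 7 days 1 of 8 was higher (Vcan), against 5.48% of all genes, and 2 of 8 were lower (Ogn and Prelp), against 5.96%, with a median of -0.17. Day 0 arrays gave 0 calls between the genotypes, where limma called 0.011% of all genes, and 0 of the 8 had an unadjusted p under 0.05. Without further scaling of the arrays the share of higher genes among all genes called changed from 48.1% to 29.3% for the transgenic and from 47.9% to 64.2% for the wild-type change to day 7, but 2 of the 8 stayed higher and 5 lower in transgenic skin.

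**Figure D1:**
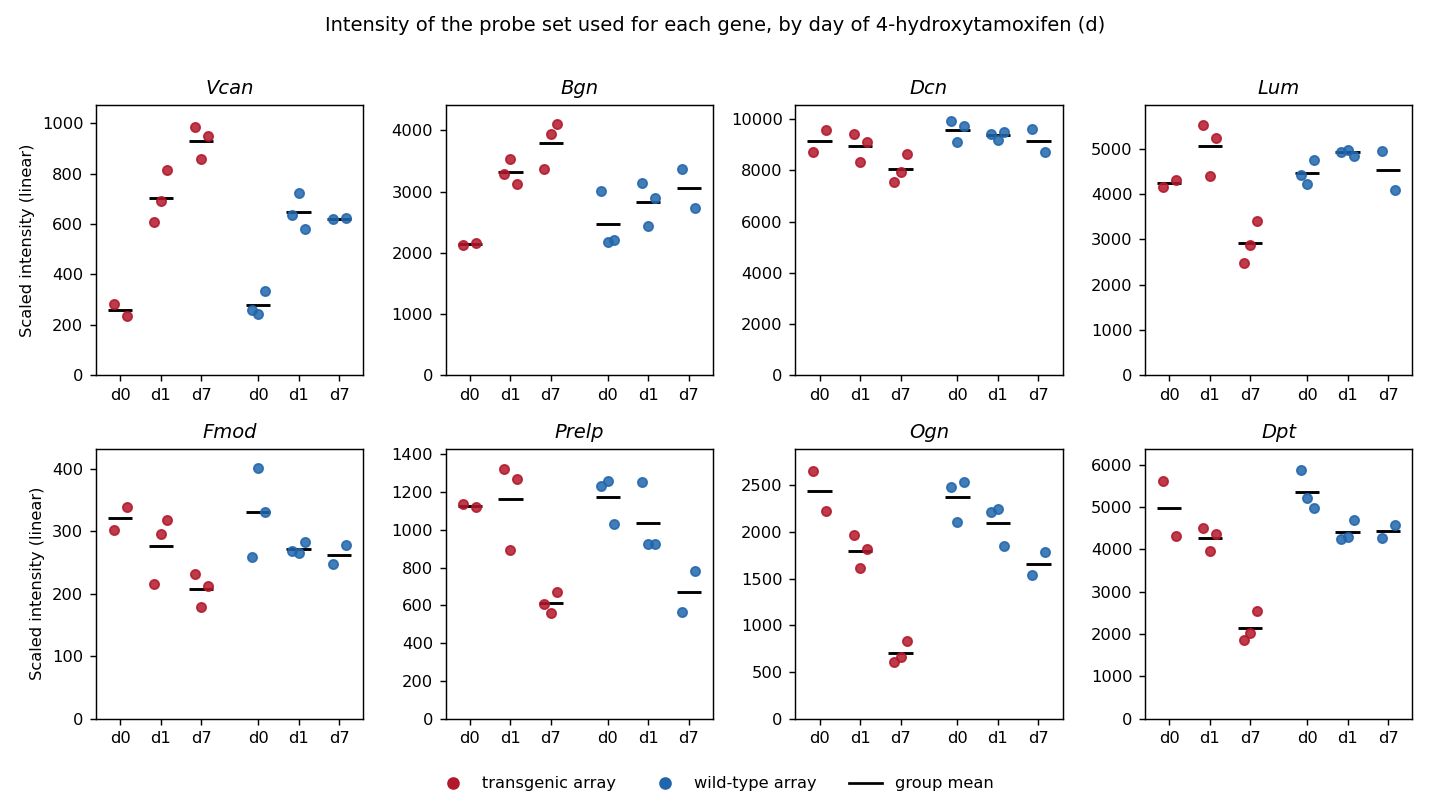
Scaled intensity (linear axis from 0) of the brightest probe set of each of the 8 genes on all 16 arrays, by day of 4OHT, with transgenic arrays in red, wild-type arrays in blue and bars at the group means. At day 7 the 3 transgenic arrays lie above both wild-type arrays for Vcan and below both for Lum, Ogn, Dpt, Dcn and Fmod. The 2 genotypes overlap there for Bgn and Prelp.

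Versican was the gene of the 8 that rose in both genotypes and at both times. Its scaled intensity in transgenic skin was 281 and 235 at day 0, 606, 692 and 813 at day 1, and 983, 859 and 947 at day 7. In wild-type skin it was 257, 244 and 332 at day 0, 634, 723 and 582 at day 1, and 618 and 622 at day 7. No day 1 or day 7 array of either genotype overlapped a day 0 array, and all 3 transgenic day 7 arrays lay above every other array of the series. The rise to day 1 was 1.34 ± 0.14 (SE) on the log2 scale in transgenic skin, or 2.53-fold (adjusted p = 4.81e-05), and 1.13 ± 0.13 in wild-type skin, or 2.20-fold (adjusted p = 5.57e-05).

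From day 1 to day 7 Vcan rose further in transgenic skin, by 0.39 ± 0.13 (adjusted p = 0.0187), while the wild-type difference was -0.05 ± 0.14 (adjusted p = 0.892). The change from day 0 to day 7 was 1.73 ± 0.14, or 3.32-fold, in transgenic skin (adjusted p = 1.95e-07) and 1.08 ± 0.14, or 2.12-fold, in wild-type skin (adjusted p = 0.000321). Ordered by mean level, transgenic day 7 (929) came first and differed from transgenic day 1 (704), which did not pass the test against wild-type day 1 (646). Wild-type day 1 did not pass against wild-type day 7 (620), and both day 0 groups (278 wild-type, 258 transgenic) lay well below and did not pass against each other. The transgenic excess at day 7 was 0.56 ± 0.14 (adjusted p = 0.00498), and it did not pass the test when the arrays were not scaled further (0.61, adjusted p = 0.0844). The day 1 to day 7 rise did not pass without array 1 of transgenic day 1 (adjusted p = 0.0936) or array 1 of transgenic day 7 (adjusted p = 0.0669), nor without further scaling (adjusted p = 0.251).

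Biglycan, which binds TGF-beta and, once released from matrix, Toll-like receptors, rose in transgenic skin. It read 2126 and 2158 at day 0, 3287, 3539 and 3122 at day 1, and 3369, 3937 and 4104 at day 7, so every treated transgenic array lay above both untreated ones. Wild-type arrays read 3007, 2184 and 2203 at day 0, 3147, 2437 and 2897 at day 1, and 3371 and 2737 at day 7, with all 3 days overlapping and array 1 of day 0 above the other 2 of that day. The transgenic rise was 0.62 ± 0.14 to day 1, or 1.54-fold (adjusted p = 0.0129), and 0.81 ± 0.14 to day 7, or 1.76-fold (adjusted p = 0.000343). The day 1 rise did not pass without array 1 of transgenic day 0 (adjusted p = 0.0655) or array 2 (adjusted p = 0.0927), nor without further scaling (0.49, adjusted p = 0.257). Neither of the other 2 Bgn probe sets passed for that rise, at 0.30 (adjusted p = 0.189) and 0.56 (adjusted p = 0.0749), while the first of them passed at wild-type day 1 (0.41, adjusted p = 0.0309).

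In wild-type skin the Bgn difference to day 7 was 0.31 ± 0.14 (adjusted p = 0.174), and without the high array 1 of wild-type day 0 it was 0.46 and passed the test (adjusted p = 0.0386). By mean level the groups ran from transgenic day 7 (3803) through transgenic day 1 (3316), wild-type day 7 (3054), day 1 (2827) and day 0 (2465) to transgenic day 0 (2142). None of the neighbours in that order that were compared passed the test, and transgenic day 1 and wild-type day 7, which were not compared, overlapped. The genotype difference at day 7 was 0.32 ± 0.14 (adjusted p = 0.0917). It passed without array 1 of wild-type day 0 (adjusted p = 0.0466), an array that enters this comparison only through the shared estimate of spread, and under quantile normalization (0.39, adjusted p = 0.0447). With the mean of all 3 probe sets it was 0.50 (adjusted p = 0.00464), and the other 2 probe sets passed singly at 0.54 (adjusted p = 0.00677) and 0.65 (adjusted p = 0.0141). Over the 16 arrays left out in turn the value of the brightest probe set ran from 0.17, without array 2 of wild-type day 7, to 0.46, without array 1 of that group, and neither of these passed.

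Decorin, the abundant proteoglycan that coats dermal collagen fibrils, moved least of the 8 in transgenic skin to day 7. Transgenic arrays read 8723 and 9564 at day 0, 9413, 8329 and 9098 at day 1, and 7538, 7955 and 8648 at day 7. Wild-type arrays read 9923, 9100 and 9747 at day 0, 9435, 9193 and 9517 at day 1, and 9619 and 8712 at day 7. The transgenic day 7 arrays were all below both transgenic day 0 arrays, and group means ran from 8047 (transgenic day 7) to 9590 (wild-type day 0), with overlap between every pair of neighbours in the order. The transgenic difference to day 7 was -0.18 ± 0.083, with a 95% confidence interval from -0.36 to -0.0075 (adjusted p = 0.0939). It passed the test under quantile normalization (-0.25, adjusted p = 0.00656) and without array 3 of transgenic day 7 (-0.24, adjusted p = 0.0454). The genotype difference at day 7, -0.19 ± 0.083 (adjusted p = 0.0845), passed without the same array (adjusted p = 0.0403). In the other 3 changes from day 0 the difference lay between -0.066 and -0.031.

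Lumican, a keratan sulfate proteoglycan that limits collagen fibril width, stood at 4161 and 4309 at day 0, 5521, 4397 and 5244 at day 1 and 2483, 2871 and 3411 at day 7 in transgenic skin. Wild-type arrays read 4411, 4223 and 4739, then 4928, 4975 and 4838, then 4950 and 4088. The 3 transgenic day 7 arrays were the lowest of all 16, while at day 1 every array of both genotypes lay above the day 0 arrays of its genotype. The day 1 differences of 0.25 ± 0.12 and 0.14 ± 0.11 did not pass (adjusted p = 0.217 transgenic and 0.386 wild-type). The transgenic fall was 0.54 to day 7 on the log2 scale (SE 0.12, 0.687 of the day 0 level, adjusted p = 0.00262) and 0.79 from day 1 (SE 0.11, adjusted p = 4.32e-05), where the wild-type change to day 7 was 0.015 ± 0.12 (adjusted p = 0.955). The other 5 groups had means of 4235 to 5054, and no neighbours among them that were compared passed the test.

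Fibromodulin, whose binding site on collagen overlaps that of lumican, was dim. Transgenic arrays read 302 and 339, then 215.5, 296 and 319 at day 1, then 232, 179 and 213 at day 7, and wild-type arrays 260, 401 and 331, then 269, 265.5 and 283, then 248 and 278. The transgenic change to day 7 was -0.56 ± 0.17 (adjusted p = 0.0145), with all day 7 arrays below both day 0 arrays, and the wild-type difference was -0.28 ± 0.17 (adjusted p = 0.301). Without array 2 of transgenic day 0, which leaves 1 array in that group, the transgenic change to day 7 was -0.48 and lost its call. The fall did not pass without array 2 of transgenic day 7 (adjusted p = 0.059). Nor did it pass without array 2 of transgenic day 1 (0.0623) or array 3 of wild-type day 1 (0.0897), both outside this comparison. In those 2 fits another Fmod probe set became the brightest, with a change of -0.55. The day 1 difference, -0.21 ± 0.17, passed without array 1 of transgenic day 0 (-0.87, adjusted p = 0.031), where another probe set became the brightest. Without that array the change to day 7 was -1.08 (adjusted p = 0.00187). That from day 1 to day 7, -0.35 ± 0.15 (adjusted p = 0.0655), passed without array 1 of transgenic day 1 (0.0143) or array 1 (0.0427) or array 2 (0.0479) of wild-type day 0. It also passed under quantile normalization (-0.46, adjusted p = 0.0222) and with the mean of all kept probe sets (-0.42, adjusted p = 0.0233). Group means ran from 208 (transgenic day 7) to 331 (wild-type day 0), and all groups but transgenic day 7 overlapped their neighbours.

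Prelp, which links collagen to heparan sulfate of basement membranes, fell by day 7 in both genotypes. It read 1135 and 1123 at day 0, 1324, 892 and 1268 at day 1, and 608, 561 and 671 at day 7 in transgenic skin. Wild-type arrays read 1234, 1259 and 1032, then 1252, 927 and 924, then 563 and 780. All 5 day 7 arrays lay below all 11 others, and the genotypes overlapped at every day. The change was -0.85 ± 0.18 in transgenic skin (0.554 of the day 0 level, adjusted p = 0.00121) and -0.79 ± 0.18 in wild-type skin (0.578, adjusted p = 0.00907), and from day 1 to day 7 it was -0.87 ± 0.16 (adjusted p = 0.000385) and -0.60 ± 0.18 (adjusted p = 0.0717). The wild-type fall to day 7 did not pass without array 1 of wild-type day 7 (-0.57, adjusted p = 0.158) or without further scaling (adjusted p = 0.0625), and the wild-type difference from day 1 passed without array 2 of transgenic day 1 (adjusted p = 0.044).

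Osteoglycin, a small proteoglycan of the collagen-binding group, fell furthest of the 8 in transgenic skin. It read 2653 and 2229 at day 0, 1965, 1612 and 1820 at day 1, and 606, 662 and 830 at day 7 in transgenic skin, where no 2 days overlapped. Wild-type arrays read 2482, 2102 and 2536, then 2210, 2246 and 1845, then 1537 and 1783, with both day 7 arrays below all earlier ones. The transgenic fall to day 7 was 1.76 on the log2 scale (SE 0.14, 0.294 of the day 0 level, adjusted p = 1.64e-07), of which the difference to day 1, -0.43 ± 0.14, did not pass (adjusted p = 0.0586). It passed without array 3 of transgenic day 7 (adjusted p = 0.035), an array outside that comparison. From day 1 to day 7 the change was -1.33 ± 0.13 (adjusted p = 8.6e-07).

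The wild-type change in Ogn to day 7 was -0.51 ± 0.14 (adjusted p = 0.0293), and this call was lost without any of 4 arrays taken singly: array 1 of wild-type day 0 (adjusted p = 0.0738) or array 3 (0.0818), or array 1 of wild-type day 7 (0.254) or array 2 (0.062). It was also lost without further scaling (0.315) and with the mean of both probe sets (0.0711). Transgenic day 7 (699) had the lowest mean and differed from wild-type day 7 (1660) by -1.22 ± 0.14 (adjusted p = 8.48e-06). Above it wild-type day 7, transgenic day 1 (1799) and wild-type day 1 (2100) were followed by both day 0 groups (2373 wild-type and 2441 transgenic), and the neighbours compared did not pass the test.

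Dermatopontin stood at 5622 and 4323 at day 0, 4503, 3955 and 4372 at day 1, and 1868, 2012 and 2547 at day 7 in transgenic skin. Wild-type arrays read 5872, 5201 and 4973, then 4250, 4278 and 4700, then 4274 and 4567. The 3 transgenic day 7 arrays lay below every other array, and in wild-type skin both later days lay below day 0. The transgenic fall to day 7 was 1.20 on the log2 scale (SE 0.13, 0.434 of the day 0 level, adjusted p = 3.41e-06), and the change from day 1 to day 7 was -0.997 ± 0.12 (adjusted p = 7.32e-06). Wild-type differences from day 0 were -0.27 ± 0.12 at day 1 (adjusted p = 0.101) and -0.27 ± 0.13 at day 7 (adjusted p = 0.199). The other 5 groups had means of 4277 to 5349, in which the neighbours compared did not pass the test.

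Counted by comparison, transgenic day 1 against day 0 called 2 of 8 higher (Vcan and Bgn, against 6.6% of all genes) and 0 lower (against 4.15%), with 3 of 8 at an unadjusted p under 0.05 in limma, the third being Ogn. Wild-type day 1 against day 0 called Vcan alone higher (against 10.1%) and 0 lower (against 12.3%), with 2 of 8 at an unadjusted p under 0.05, the other being Dpt. Without further scaling the share of higher genes among all genes called in wild-type day 1 against day 0 went from 45.1% to 82.2%, and Vcan stayed the gene called. From day 1 to day 7 transgenic skin had 1 of 8 higher (Vcan, against 21.5%) and 4 of 8 lower (Lum, Ogn, Prelp and Dpt, against 22.7%). Wild-type skin had 0 of 8 called over that interval, where limma called 3.15% of all genes, and 2 of 8, Ogn and Prelp, had an unadjusted p under 0.05.

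Between genotypes, 0 of 8 were called at day 1, where limma called 1.3% of all genes, and 0 had an unadjusted p under 0.05. The share of higher genes among all those called there went from 54.2% to 75% without further scaling. At day 7 the count was 1 of 8 higher (Vcan, against 19.5%) and 3 of 8 lower (Lum, Ogn and Dpt, against 21%). Groups that did not overlap were counted too: between transgenic day 7 and day 0, 2 genes lay wholly above (against 29.9% of all genes) and 6 wholly below (against 29.7%), Dcn included. For wild-type skin the same counts were 1 (against 19%) and 3 (against 25%), and for the genotypes at day 7 they were 1 (against 31.6%) and 5 (against 31.4%), the 5 being Lum, Ogn, Dpt, Dcn and Fmod.

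The test of the difference between the genotypes' changes gives which genes responded differently. For the change to day 1, 0 of 8 passed in limma, against 0.287% of all genes, and 1, Bgn, had an unadjusted p under 0.05 (0.42 ± 0.19, adjusted p = 0.317). Over all genes called there, 38.5% were higher, against 14.3% without further scaling and 50% under quantile normalization. For the change to day 7, Vcan was higher, 1 of 8 against 12.1% of all genes, and Lum, Ogn and Dpt were lower, 3 of 8 against 11.7%. Ogn differed by -1.26 ± 0.20 (adjusted p = 0.00044) and Dpt by -0.93 ± 0.18 (adjusted p = 0.00206), and each kept its call under all 27 alternatives. Vcan differed by 0.65 ± 0.20 (adjusted p = 0.0271) and Lum by -0.56 ± 0.18 (adjusted p = 0.031). Prelp, which fell in both genotypes, differed by -0.061 with a 95% interval from -0.59 to 0.47 (adjusted p = 0.889), so a difference of moderate size either way lies within its error. Without further scaling the share of higher genes among all genes called in this comparison went from 50.9% to 38.8%.

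The calls for Vcan and Lum were each lost on leaving out any of several single arrays, although the values kept their sign. That of Vcan was lost without array 2 of transgenic day 0 (adjusted p = 0.114), array 1 of transgenic day 7 (0.0605), array 3 of wild-type day 0 (0.0592), array 1 of wild-type day 7 (0.077) or array 2 (0.0704). That of Lum was lost without array 1 of transgenic day 0 (0.0657) or array 2 (0.0891), array 1 of transgenic day 7 (0.074) or array 2 (0.0579), array 1 of wild-type day 0 (0.0515) or array 2 (0.0641), or array 1 of wild-type day 7 (0.154). Without further scaling neither passed (0.433 for Vcan and 0.126 for Lum). Over all 16 arrays left out in turn the value ran from 0.53 to 0.76 for Vcan and from -0.69 to -0.42 for Lum.

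For the change from day 1 to day 7, Lum (-0.66 ± 0.17, adjusted p = 0.00799), Ogn (-0.999 ± 0.19, adjusted p = 0.00118) and Dpt (-1.001 ± 0.17, adjusted p = 0.000678) were lower, 3 of 8 against 15.1% of all genes, and 0 were higher, against 14.2%. The Vcan difference was 0.44 ± 0.19 (adjusted p = 0.0864), and it passed without array 3 of transgenic day 1 (adjusted p = 0.0366). Lum did not pass without array 1 of wild-type day 7 (adjusted p = 0.0598), and without further scaling neither Lum (0.166) nor Ogn (0.0696) passed. Without further scaling the share of higher genes among all genes called went from 48.4% to 59.0%.

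**Figure D2:**
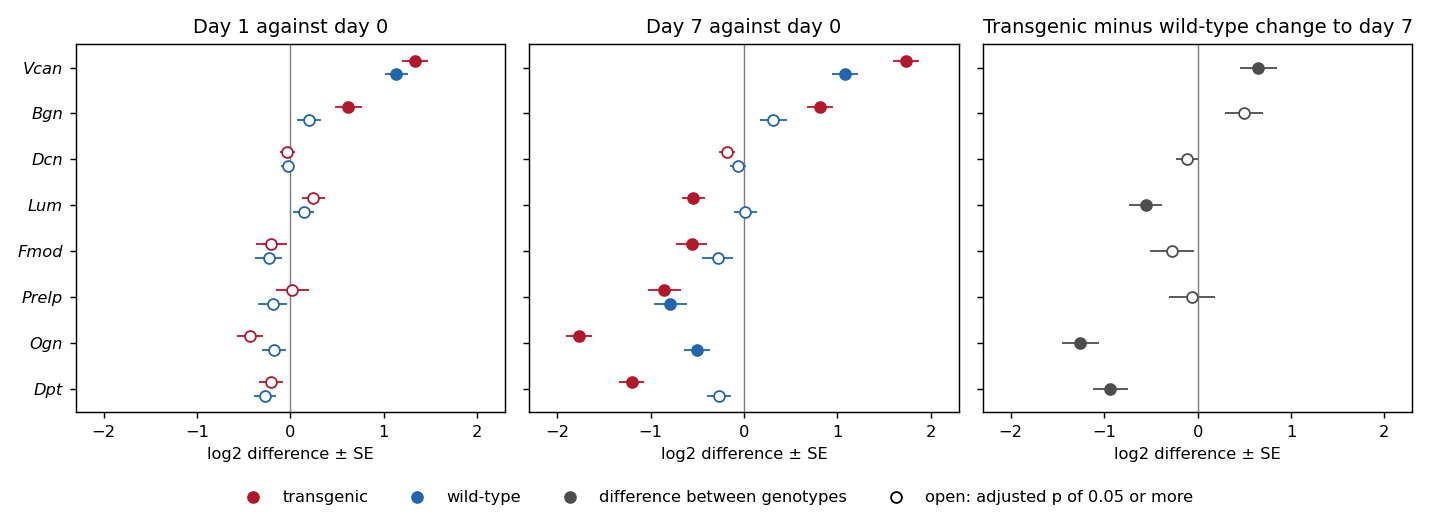
Log2 difference ± SE of the 8 genes for day 1 against day 0 (left) and day 7 against day 0 (middle), transgenic in red and wild-type in blue, and for the transgenic minus the wild-type change to day 7 (right, grey), with filled points at an adjusted p under 0.05. Vcan lies to the right of 0 in all panels, Ogn and Dpt are filled on the left in the right panel, and Prelp is filled in both genotypes at day 7 but lies near 0 on the right.

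Several probe sets of a gene gave a second reading of the same RNA, and a fit over all 15058 kept probe sets tested each. All 3 Vcan probe sets rose to day 7, by 1.73 to 1.91 in transgenic and 1.08 to 1.46 in wild-type skin, and all 3 passed in both genotypes at day 1 too. For the transgenic rise from day 1 to day 7 they gave 0.39, 0.60 and 0.40, of which the last did not pass (adjusted p = 0.0596). The transgenic excess over wild-type skin at day 7 was 0.56, 0.43 and 0.51 in that order, and the second did not pass (adjusted p = 0.182). All 3 Bgn probe sets rose in transgenic skin to day 7, by 0.65, 0.81 and 0.92, and none of the 3 passed in wild-type skin, where the one with the suffix x gave -0.12 ± 0.19 and the others 0.21 and 0.31. Both Ogn probe sets fell in transgenic skin (-1.76 and -1.93), and their wild-type differences were -0.51 and -0.50, of which the first passed.

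The probe sets of Fmod and Prelp differed more among themselves. Of the 5 kept for Fmod, 3 fell to day 7 in transgenic skin, by 0.56 to 0.88, and 2 gave -0.55 ± 0.24 (adjusted p = 0.0874) and -0.17 ± 0.25 (adjusted p = 0.635). The Fmod probe set with the largest fall also fell in wild-type skin, by 0.99 to day 1 (adjusted p = 0.00391) and by 0.79 to day 7 (adjusted p = 0.0384). Of the 5, 4 carry the suffix x, which Affymetrix gives to probe sets with probes that also match other transcripts, so their signal may not be of Fmod alone. The dim second Prelp probe set gave -0.65 ± 0.35 in transgenic and -1.10 ± 0.35 in wild-type skin, neither of which passed (adjusted p = 0.164 and 0.0628).

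Set against wild-type, the transgenic change to day 7 was larger by the following at the 3 Vcan probe sets: 0.45 ± 0.26, 0.65 ± 0.20 and 0.48 ± 0.34, of which the second alone passed (adjusted p = 0.0325). Of the Bgn probe sets, the one with the suffix x passed at 1.04 ± 0.27 (adjusted p = 0.0131) and the other 2 gave 0.44 and 0.50 (adjusted p = 0.128 and 0.0964). When all kept probe sets of a gene were averaged, Bgn passed (0.66, adjusted p = 0.0133) and Vcan did not (0.53, adjusted p = 0.0535). Both Ogn probe sets passed, at -1.26 ± 0.20 and -1.43 ± 0.32. In all, 2 of the 18 were higher (against 11% of all probe sets) and 4 lower (against 9.64%). For the genotype difference from day 1 to day 7 these counts were 1 and 5 (against 15.2% and 11.9%). The 1 was a Bgn probe set (0.54 ± 0.19, adjusted p = 0.0422). Among the 5 was an Fmod probe set with the suffix x (-1.19 ± 0.30, adjusted p = 0.01). The brightest probe sets of Bgn and Fmod did not pass there. For the changes themselves, 6 were higher and 8 lower in transgenic skin at day 7 (against 19.5% and 16.8%). In wild-type skin both counts were 3 (against 4.92% and 4.32%). At day 1 these counts were 4 and 0 in transgenic skin (against 5.3% and 3.38%). Wild-type skin had 4 higher and 1 lower at day 1 (against 11.1% and 9.86%). Probe sets of a gene share their RNA and are not replicates.

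**Figure D3:**
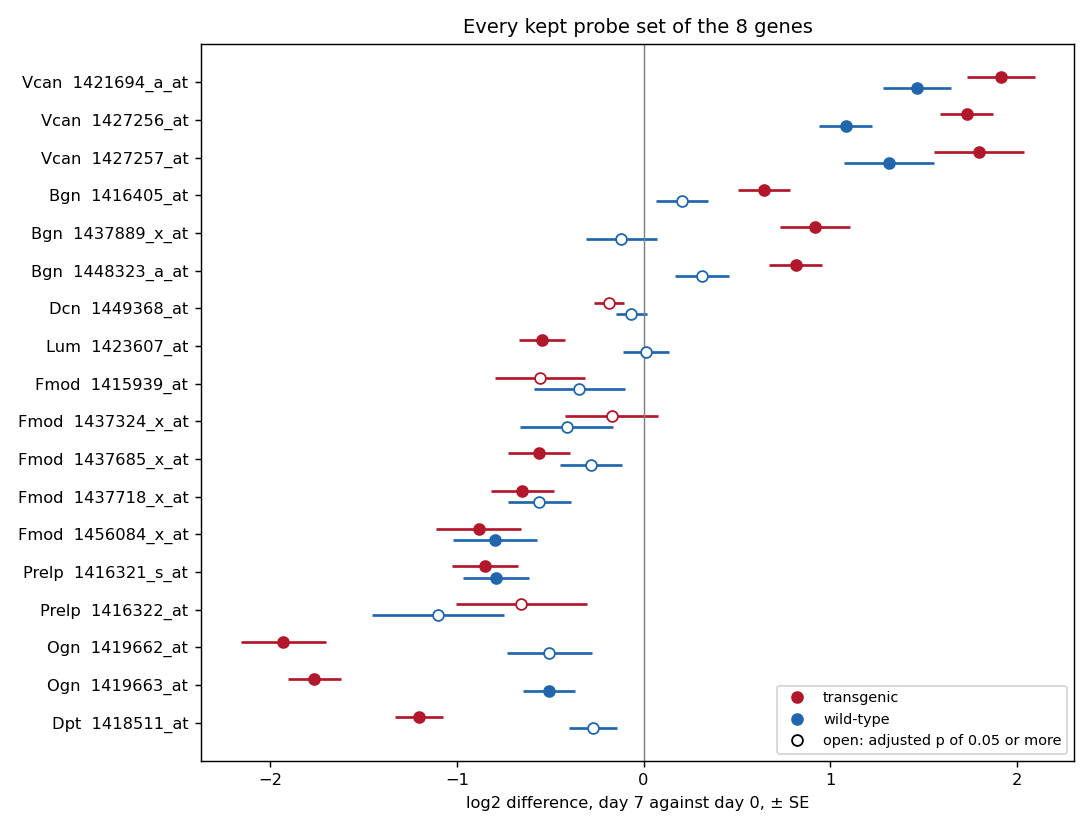
Log2 difference ± SE, day 7 against day 0, for each of the 18 kept probe sets of the 8 genes, transgenic in red and wild-type in blue, with filled points at an adjusted p under 0.05 over all kept probe sets. The 3 Vcan probe sets are filled in both genotypes, the 3 Bgn and 2 Ogn probe sets are filled in transgenic skin, and 2 of the 5 for Fmod are open in both.

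The ratio of each gene to Dcn on the same array, taken after scaling and with 32 added to both intensities, shows unequal change among the matrix genes. The added 32 moves the ratios of the dim genes, Vcan and Fmod, toward 0. The mean log2 ratio of Vcan to Dcn went from -4.99 ± 0.25 (SD, n = 2) at day 0 to -3.62 ± 0.24 (n = 3) at day 1 and -3.07 ± 0.15 (n = 3) at day 7 in transgenic skin. In wild-type skin it went from -4.97 ± 0.19 (n = 3) to -3.80 ± 0.18 (n = 3) and -3.82 ± 0.11 (n = 2). Over 7 days Bgn to Dcn went from -2.08 ± 0.078 to -1.08 ± 0.073 with the transgene and from -1.96 ± 0.22 to -1.58 ± 0.11 without it. The 3 transgenic day 7 arrays, from -1.15 to -1.01, lay above both wild-type arrays, at -1.66 and -1.50, although the Bgn intensities themselves overlapped.

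The ratios of the falling genes moved the other way. Over 7 days the Ogn ratio moved from -1.90 ± 0.27 to -3.48 ± 0.13 with the transgene and from -2.00 ± 0.086 to -2.44 ± 0.25 without it. Dpt to Dcn went from -0.89 ± 0.36 to -1.90 ± 0.13 and from -0.84 ± 0.11 to -1.05 ± 0.17. Lum to Dcn rose to -0.82 ± 0.081 at transgenic day 1 from -1.10 ± 0.058 and then lay at -1.46 ± 0.13 at day 7, with no overlap between the days. The Prelp ratio ended at -3.65 ± 0.095 with the transgene and -3.72 ± 0.42 without it, and its genotypes overlapped at each day. These ratios were not tested, and intensities of different probe sets do not give the genes' relative abundance.

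**Figure D4:**
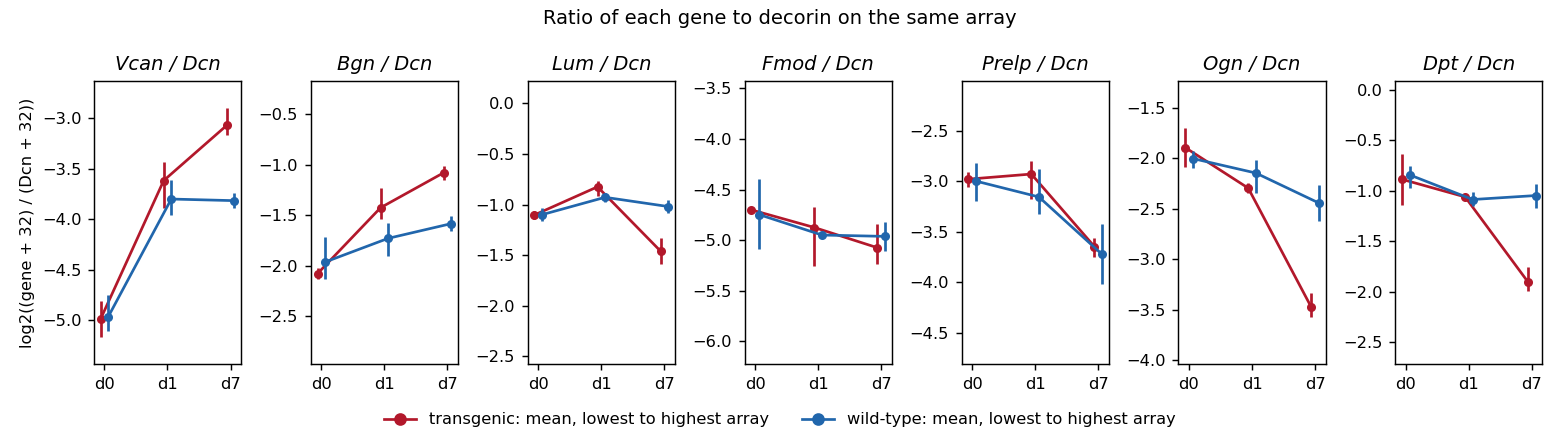
Log2 of each gene's scaled intensity plus 32 over that of Dcn plus 32 on the same array, by day of 4OHT, as group mean with a bar from the lowest to the highest array, transgenic in red and wild-type in blue, all panels spanning the same range on the axis. The genotypes part by day 7 for Vcan, Bgn, Lum, Ogn and Dpt and overlap for Fmod and Prelp.

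Several of these genes lie beside other proteoglycan genes. In the RefSeq table Dcn and Lum are followed by Kera and Epyc on chromosome 10, Optc, Prelp and Fmod are neighbours on chromosome 1, Ecm2, Aspn, Omd and Ogn on chromosome 13, and Hapln1, which links versican to hyaluronan, lies next to Vcan. Kera, Epyc, Optc and Hapln1 did not pass the filter in skin, with highest intensities of 113, 52.2, 43.1 and 27.0, and no probe set had Ecm2 as its single symbol. Within the Ogn group, Aspn (asporin, which binds TGF-beta) fell to day 7 by 0.93 in transgenic skin (SE 0.14, adjusted p = 6.5e-05). Its wild-type change was -0.54 ± 0.14 (adjusted p = 0.0195), a call lost without array 3 of wild-type day 0 (adjusted p = 0.068), array 1 of wild-type day 7 (0.116) or array 2 (0.1). The difference between genotypes for Aspn was -0.40 ± 0.19 (adjusted p = 0.152), where that of Ogn passed.

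Omd (osteomodulin), between Aspn and Ogn, fell already at day 1, by 1.07 in transgenic (adjusted p = 0.00297) and 1.11 in wild-type skin (adjusted p = 0.000701). At day 7 its change was -0.66 ± 0.19 in transgenic skin (adjusted p = 0.0143; 0.15 without array 1 of transgenic day 0) and -0.98 ± 0.19 in wild-type skin (adjusted p = 0.00505; 0.068 without array 2 of wild-type day 7). The genotype difference in that change was 0.32 ± 0.28 (adjusted p = 0.428), and its sign was opposite to that of Ogn. On chromosome 1, Prelp and Fmod both fell in transgenic skin, and on chromosome 10 Lum fell while the Dcn difference did not pass.

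The rest of the pathway was read from lists of genes. Their counts stand against the shares of all genes called: 18.6% higher and 20.1% lower at transgenic day 7, 5.48% and 5.96% at wild-type day 7, 6.6% and 4.15% at transgenic day 1, and 10.1% and 12.3% at wild-type day 1. Of 18 other proteoglycans tested, 2 rose and 4 fell in transgenic skin at day 7 (median -0.074), and 1 rose and 4 fell in wild-type skin (median -0.022). Acan (aggrecan, a relative of versican) rose by 1.46 ± 0.16 in transgenic skin (adjusted p = 2.95e-06), and its genotype difference was 1.53 ± 0.22 (adjusted p = 0.000222). Cspg4 rose by 0.76 ± 0.16 (adjusted p = 0.00121). The heparan sulfate proteoglycan Gpc3 fell by 1.82 in wild-type skin (SE 0.22, adjusted p = 0.000142), and its genotype difference was 2.01 ± 0.31 (adjusted p = 0.000324). The transgenic count of falls was 2 without array 2 of transgenic day 0 and the wild-type count was 2 without either array of wild-type day 7, while the 1 wild-type rise was lost without any array of wild-type day 0, array 3 of wild-type day 1 or either array of wild-type day 7, and was 2 without array 3 of transgenic day 7.

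Of 17 enzymes of sugar chain synthesis, 2 rose and 4 fell in transgenic skin at day 7 (median -0.092), and 0 rose and 1 fell in wild-type skin (median -0.12). Chst1, a sulfotransferase that acts on keratan sulfate, the chain type of lumican and fibromodulin, fell by 2.41 (SE 0.24, adjusted p = 1.81e-06) in transgenic and 1.39 (SE 0.24, adjusted p = 0.00242) in wild-type skin, the latter call lost without array 1 of wild-type day 7 (adjusted p = 0.0546). Csgalnact1, which starts chondroitin chains, rose by 1.00 ± 0.14 in transgenic skin (adjusted p = 5.4e-05), and its genotype difference was 1.13 ± 0.20 (adjusted p = 0.0011; 0.0573 without further scaling). Papss2, which makes the sulfate donor, fell by 1.19 (SE 0.20, adjusted p = 0.000203). The 2 rises became 1 without array 2 of transgenic day 0 or array 2 of transgenic day 7, and wild-type falls were 2 without array 3 of transgenic day 1 or array 1 of wild-type day 0, the former also giving 1 wild-type rise.

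Hyaluronan is the sugar that versican binds. Of 11 genes for its synthesis, binding and breakdown, 4 rose and 0 fell in transgenic skin at day 7 (median 0.18), and 1 rose and 1 fell in wild-type skin (median 0.24). The 4 were Hmmr (1.55 ± 0.20, adjusted p = 2.18e-05), a hyaluronan receptor also made in dividing cells, Has3 (2.09 ± 0.35, adjusted p = 0.000211), a hyaluronan synthase, Cd44 (0.64 ± 0.11, adjusted p = 0.000255), the main receptor, and Hyal2 (0.91 ± 0.18, adjusted p = 0.000902), a hyaluronidase. Each differed between the genotypes, by 1.25 ± 0.29 (adjusted p = 0.0057), 1.95 ± 0.49 (0.00996), 0.79 ± 0.15 (0.00187) and 0.98 ± 0.25 (0.0119) in that order. Without further scaling the Cd44 rise (adjusted p = 0.185) and the Cd44 and Hyal2 differences (0.286 and 0.118) did not pass, and the Has3 difference did not pass without array 2 of transgenic day 0 (0.0627) or array 1 of wild-type day 7 (0.061). Has2, a synthase of dermal cells, rose by 1.10 ± 0.24 in wild-type skin at day 1 (adjusted p = 0.00483). Stab1 made up the 1 wild-type rise at day 7 (1.22 ± 0.27, adjusted p = 0.00963) and did not pass without array 2 of wild-type day 7 (adjusted p = 0.11); the list then had 0 rises, and 3 without array 3 of wild-type day 0, while 1 fall was called in transgenic skin without array 2 of transgenic day 0 or array 3 of transgenic day 7.

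Among 10 proteases and inhibitors that act on proteoglycans, 3 rose and 5 fell in transgenic skin at day 7 (median -0.047), and 2 rose and 1 fell in wild-type skin (median -0.0046). Adamts1, which cuts versican and aggrecan, rose with Vcan at day 1, by 1.23 ± 0.15 in transgenic (adjusted p = 0.000178) and 1.27 ± 0.14 in wild-type skin (adjusted p = 5.57e-05). Mmp2 fell by 0.90 (SE 0.091, adjusted p = 1.86e-06), Mmp3 by 1.34 (SE 0.16, adjusted p = 1.04e-05) and Timp3, an inhibitor of both MMP and ADAMTS proteases, by 1.06 (SE 0.15, adjusted p = 4.72e-05) in transgenic skin at day 7. The genotype differences of Mmp2 and Mmp3 were -0.81 ± 0.13 (adjusted p = 0.000495) and -1.29 ± 0.23 (adjusted p = 0.00104). The wild-type fall was that of Timp3 (-0.76 ± 0.15, adjusted p = 0.00505), lost without array 1 of wild-type day 7 (adjusted p = 0.0887), and the 2 wild-type rises became 1 without either array of wild-type day 7.

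Collagens and collagen-modifying enzymes gave 9 of 21 higher and 0 lower at transgenic day 1 (median 0.34) and 7 higher and 0 lower at wild-type day 1 (median 0.24), where the medians of all genes were -0.034 and -0.025. Plod1, a lysyl hydroxylase, rose by 1.15 ± 0.12 (adjusted p = 4.81e-05) in transgenic and 0.91 ± 0.11 (adjusted p = 0.000125) in wild-type skin, and Thbs2, which shapes fibrils, by 1.68 ± 0.20 (adjusted p = 0.000106) and 1.29 ± 0.18 (adjusted p = 0.000287). The 9 became 3 without further scaling and 4 without array 2 of transgenic day 0, and the 7 became 4 without array 2 of wild-type day 0 or array 1 of wild-type day 1. At day 7, 4 of 21 were higher (1 without further scaling) and 2 lower in transgenic skin (median 0.23). Col12a1, a collagen on fibril surfaces that binds decorin and fibromodulin, rose by 1.14 ± 0.26 (adjusted p = 0.00259), and its genotype difference was 2.04 ± 0.37 (adjusted p = 0.0011). In wild-type skin 6 were higher and 1 lower (median 0.32). Between the genotypes at day 7, 2 were higher (against 19.5% of all genes) and 8 lower (against 21%), with a median of -0.30. The 6 became 1 without further scaling and 3 without array 1 of wild-type day 7, and the 8 became 5 under either of these. The 1 wild-type fall became 0 without array 2 or 3 of wild-type day 0 or either array of wild-type day 7, and 2 without array 3 of wild-type day 1, and the 2 genes higher between genotypes became 1 without array 2 of wild-type day 7. The 2 transgenic falls became 0 without array 1 of transgenic day 0, 1 without array 2 of transgenic day 7 and 4 without array 3 of transgenic day 7.

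Of 16 genes of the TGF-beta pathway, whose ligands biglycan, decorin and dermatopontin bind, 4 rose and 5 fell in transgenic skin at day 7 (median -0.097). The ligand Tgfb3 rose by 1.33 ± 0.16 (adjusted p = 1.17e-05), with a genotype difference of 1.85 ± 0.23 (adjusted p = 6.77e-05). Tgfbi, a matrix protein induced by TGF-beta, fell by 0.85 (SE 0.097, adjusted p = 5.9e-06), and Ltbp2, a fibrillin-binding protein, also fell (-1.74 ± 0.21, adjusted p = 1.02e-05). In wild-type skin 2 rose and 4 fell (median -0.18), and Ltbp1, which holds latent TGF-beta in matrix, rose by 1.07 ± 0.14 (adjusted p = 0.00037). The 4 transgenic rises were 1 without further scaling and 2 without either array of transgenic day 0, the 2 wild-type rises 1 without array 1 of wild-type day 7, and the 4 wild-type falls between 0 and 2 without array 1 of wild-type day 7 (0) or array 2 (1), any array of wild-type day 0 (2) or array 2 of transgenic day 1 (2).

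**Figure D5:**
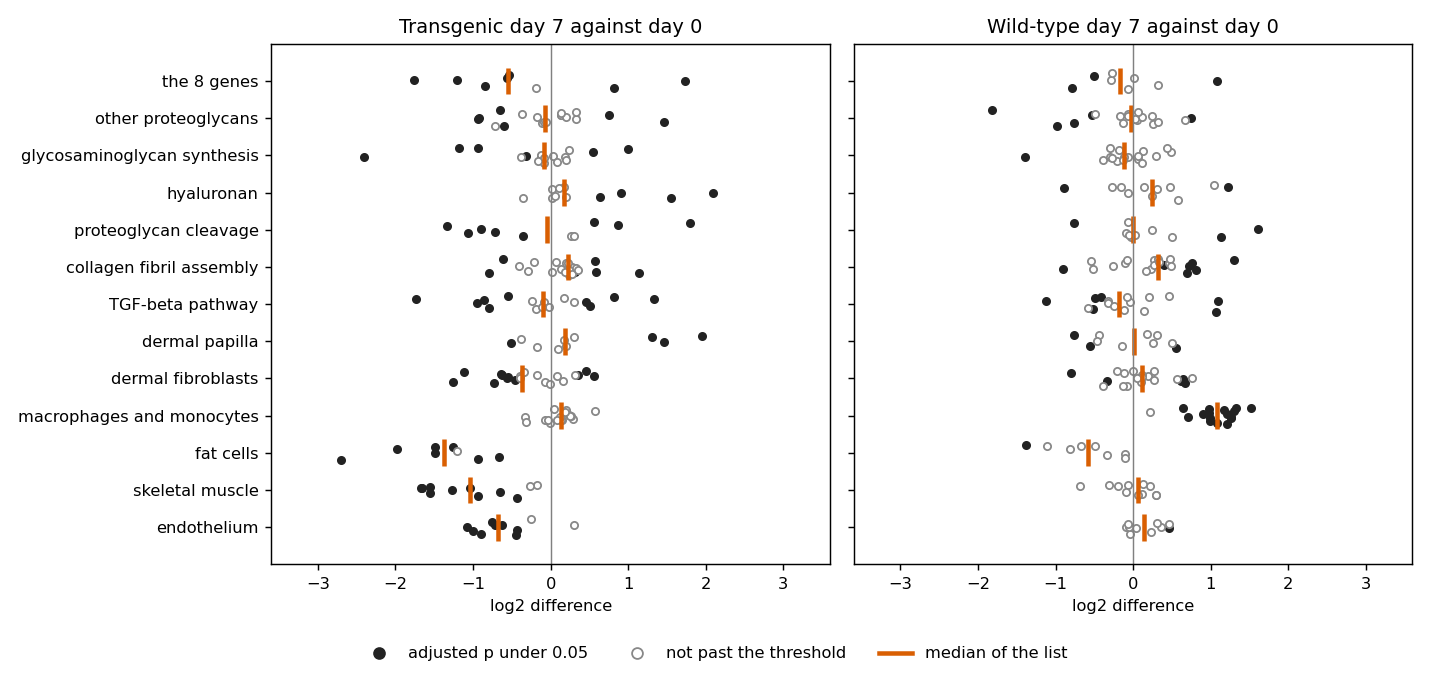
Log2 difference, day 7 against day 0, of each gene tested in the 8 genes and 12 other lists, for transgenic (left) and wild-type skin (right), with filled points at an adjusted p under 0.05 and orange bars at list medians. The fat cell, skeletal muscle and endothelium lists lie mostly to the left of 0 in transgenic skin, and the macrophage list lies to the right of 0 in wild-type skin.

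Markers of other cell types moved with these genes, and their part in the results was not tested. In transgenic skin at day 7, 12 of 12 genes of the growing hair follicle rose (median 4.97), and their summed scaled intensity was 33630 to 52150, against 848 to 1094 at day 0. Of 10 dermal papilla markers tested, 3 rose (Wif1 1.95, Trps1 1.46 and Sox18 1.30) and 1 fell (Hey1, -0.51), and their sum was 3727 to 3890 against 2484 to 2515, where in wild-type skin at day 7 it was 2472 to 2510. Sox2, Corin, Lef1 and Fgf10, also papilla markers, did not pass the filter, with highest intensities of 44.6, 120, 132 and 69.5. The Vcan rise at day 1 came with papilla sums of 2207 to 2510 in transgenic skin, against 2484 to 2515 at transgenic day 0. In wild-type skin the sums were 2415 to 2655 at day 1, against 2359 to 2915 at day 0. The Hey1 fall did not pass without either array of transgenic day 0, array 1 of transgenic day 7 or array 2 (adjusted p = 0.0718 to 0.159).

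Macrophage and monocyte markers rose with Vcan at day 1 in both genotypes and at day 7 in wild-type skin, and went the other way in transgenic skin after day 1. Of 17 tested, 15 rose at transgenic day 1 (median 1.07), 16 at wild-type day 1 (median 1.16) and 16 at wild-type day 7 (median 1.09). At transgenic day 7, where Vcan was highest, limma called 0 of 17 (median 0.13; 0 at an unadjusted p under 0.05), and 2 were lower without array 3 of transgenic day 7. From transgenic day 1 to day 7, 14 of 17 fell (against 22.7% of all genes) and 0 rose (against 21.5%). Their median was -0.94, while Vcan rose by 0.39. Their summed intensity was 23180 to 26840 at transgenic day 0, 35940 to 52310 at day 1 and 23350 to 39160 at day 7, and in wild-type skin 25350 to 29430, 49700 to 54390 and 55770 to 56460. The 15 rises were 9 without array 1 of transgenic day 0, 4 without array 2, 8 without array 1 of transgenic day 1 and 7 without array 2, and the 16 at wild-type day 7 were 9 without array 1 of wild-type day 7 and 10 without array 2.

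Beside the falls of Lum, Ogn and Dpt stood lower markers of several cell types, of the epidermis as well as the dermis. Of 11 basal keratinocyte markers, 6 fell and 0 rose in transgenic skin at day 7 (median -0.50, against -0.55 for the 8 genes), with sums of 35240 to 35950 against 44770 to 51360 at day 0. They fell in wild-type skin too, 9 of 11 at day 1 (median -0.45) and 4 of 11 at day 7 (median -0.34). The genotype difference in the change to day 7 was lower for 1 of 11, against 11.7% of all genes. In transgenic skin at day 7, Schwann cell markers fell in 3 of 4 cases, and of 10 smooth muscle markers 4 fell and 1 rose. Of 20 dermal fibroblast markers in transgenic skin at day 7, 3 rose and 8 fell (median -0.37), led by Cd34 (-1.12 ± 0.17, adjusted p = 8.85e-05), Pdgfrb (-0.63 ± 0.10, adjusted p = 0.000187) and Prrx1 (-0.55 ± 0.094, adjusted p = 0.000252). Their sum was 31720 to 39430 against 42390 to 43270 at day 0, and 51290 to 52300 at wild-type day 7, where 3 rose and 2 fell. The 8 falls were 4 without array 1 of transgenic day 0, the 3 transgenic rises 1 without array 2 and 0 without further scaling, and the wild-type counts 1 and 0 without array 1 of wild-type day 7, 0 and 1 without array 2, and 1 fall without array 2 of wild-type day 0 or 3.

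Fat cell markers fell in 7 of 8 cases in transgenic skin (median -1.37) and their sum was 11720 to 13550 against 24560 to 31810 at day 0. In wild-type skin 1 of 8 fell (median -0.58; 0 of 8 without array 1 of wild-type day 7, 2 without array 1 of wild-type day 1), with sums of 18950 to 26880 against 26640 to 31480. Skeletal muscle markers fell in 9 of 11 (median -1.04) and endothelial markers in 8 of 10 (median -0.68) in transgenic skin, and the filter at the 60th percentile left 5 endothelial falls. In wild-type skin limma called 0 of 11 muscle genes, with 2 at an unadjusted p under 0.05.

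Of all other genes tested, those whose log2 values followed each gene most closely over the 16 arrays are given as a description, since all arrays share the 6 groups. For Vcan these were Nme4 (r = 0.93), Incenp (0.929) and Sulf2 (0.916), an enzyme that removes sulfate from heparan sulfate, and for Bgn they were Pdia3 (0.905), Lbh (0.893) and Osgep (0.887). For Ogn they were Adhfe1 (0.977), Igfbp5 (0.972) and Serping1 (0.971), and for Dpt Pcolce2 (0.979), which aids the processing of procollagen, Il6st (0.97) and Dram1 (0.97). Lum followed Pmp22 (0.957), Il1r2 (0.95) and Gpx3 (0.938), and Prelp followed Fmo1 (0.941), Cidec (0.94), a lipid droplet protein of fat cells, and Gstt1 (0.921). For Fmod they were Nfe2l2 (0.909), Pptc7 (0.908) and Tpm2 (0.893), and for Dcn Akap17b (0.9), Pttg1 (0.875) and Rab3a (0.872). Cidec fell at day 7, with -2.70 in transgenic (adjusted p = 1.45e-05) and -1.39 in wild-type skin (adjusted p = 0.0151; 0.241 without array 1 of wild-type day 7), and so fell in both genotypes as Prelp did. Among the 8 genes themselves, Ogn and Dpt were closest (r = 0.964), Vcan and Bgn had r = 0.782, and Bgn and Fmod had r = -0.785.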

How the data were processed

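Each of 16 arrays measured total RNA of whole skin. The authors deposited 1 linear-scale intensity per probe set from Affymetrix GeneChips to which, per the labels, biotinylated cRNA was hybridised. How probes were summarised and scaled is not stated in the sources used here. Trimmed means (2% removed at each end) ran from 359 to 547.9, so arrays were scaled to a common one by factors of 0.825 to 1.26, and log2(intensity + 32) was taken, which understates changes of dim genes. Arrays give no read depth; their number limits the precision.

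Probe sets above the 40th percentile on at least 2 arrays were kept: 15058 of 22690, 64 of which are controls. By the platform annotation 20380 probe sets had 1 symbol, 691 several and 1555 were not listed. The brightest kept probe set stood for each of 9058 genes. limma 3.58.1 (R 4.3.3) fitted 6 group means on all 16 arrays with a variance trend and 10 residual degrees of freedom; 12 comparisons were two-sided, adjusted by Benjamini-Hochberg within each, and called at 0.05. The fit was tested on simulated data.

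The 8 genes and all lists were chosen with earlier results of these data known. Named were all 8 genes, up to 4 genes per list and comparison of smallest p among those called, the 3 most correlated genes and proteoglycan neighbours in the RefSeq table. Alternatives were quantile normalization, no further scaling, added values of 8 and 128, no filter, filtering at the 60th percentile (3 arrays), the mean of all kept probe sets, 1 row per probe set, only the groups compared, no variance trend, a replicate block and leaving out each array.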

Additional observations from a re-analysis of the deposited data

Results flagged for a closer look

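For 4 of the 8 genes the change from day 0 to day 7 differed between the genotypes by the interaction test in limma. That test called 23.8% of all genes, 12.1% higher and 11.7% lower. Vcan rose more in transgenic skin, by 0.65 on the log2 scale, and the changes of Lum (-0.56), Ogn (-1.26) and Dpt (-0.93) were lower there. For the change from day 1 to day 7 the same test gave -0.66 for Lum, -0.999 for Ogn and -1.001 for Dpt, where 15.1% of all genes were lower. For the change to day 7, leaving out any of several single arrays lost the calls for Vcan and Lum. Their values kept their sign, as given in the report. With the mean of all kept probe sets Vcan did not pass (adjusted p = 0.0535) and Bgn did (0.0133).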

How the results depend on the processing

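Of 29 called values of the 8 genes, 19 kept their call under all 11 other settings and with each of the 16 arrays left out. Of 2592 recomputed values, 2533 kept their side of the threshold, 39 calls were lost, 20 were gained and 0 reversed. Without further scaling, the genes called were 1 for transgenic day 1 against day 0, 1 for wild-type day 7 against day 0, 2 for the genotype difference in the change to day 7 and 1 for that from day 1 to day 7. With the mean of all kept probe sets, wild-type day 1 against day 0 had 2. Other counts moved by less. For transgenic day 7 against day 1, quantile normalization gave 1 higher and 6 lower, no further scaling 0 and 4, and the mean 2 and 5. For the genotypes at day 7 these settings gave 2 and 3, 0 and 3, and 2 and 3. Quantile normalization gave 2 and 6 for transgenic day 7 against day 0. With an array left out, the counts ran from 1 to 3 for transgenic day 1 against day 0, from 1 to 3 for wild-type day 7 against day 0, from 0 to 1 for wild-type day 7 against day 1 and from 2 to 4 for the genotype difference in the change to day 7. Among list genes, the fall of Prrx1 at wild-type day 1 became 0.0887 with the mean of all kept probe sets; the list alternatives were added after seeing the data.

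Over all genes, no further scaling cut the calls from 974 to 186 (transgenic day 1), 3502 to 1776 (transgenic day 7), 4009 to 1892 (transgenic day 7 against day 1), 2023 to 465 (wild-type day 1), 1036 to 257 (wild-type day 7), 285 to 74 (wild-type day 7 against day 1), 118 to 16 and 3669 to 1744 (genotypes at days 1 and 7), and 26 to 7, 2154 to 724 and 2658 to 821 (genotype differences in the changes to day 1, to day 7 and from day 1 to day 7). Without further scaling the median of all genes was -0.16 for transgenic day 1, -0.13 for transgenic day 7, -0.11 for wild-type day 7 against day 1, 0.14 for the genotypes at day 0, and -0.18 and -0.10 for the genotype differences in the changes to day 1 and day 7. The cause was not tested.

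With the replicate block, Ogn at wild-type day 7 (-0.48, adjusted p = 0.0546) and the genotype difference of Vcan to day 7 (0.56, adjusted p = 0.0699) lost their calls, and no other call of the 8 genes changed. Whether the replicate numbers pair the samples was not settled. Between the groups of 3 arrays, 5 of 18 same-numbered pairs had deviations correlated above 0.1, with r from -0.165 to 0.192. Pairs of different number were not compared, so these values cannot show whether such a pairing exists.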
